A study of Rattus with 8 samples.

Results

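The hippocampal miR-132 and miR-212 cluster comprises 4 of the 615 mature miRNAs that were listed, namely both arms of rno-miR-132 and both arms of rno-miR-212. They were taken by name, each name once, and not by any measured value. Small RNA was sequenced from the hippocampus of 4 rats of the CPB/DHCA group and 4 rats of the control group, with 1 library per rat and no further treatment group. Rats of the CPB/DHCA group were connected to a cardiopulmonary bypass (CPB) circuit, cooled over 30 min and held in deep hypothermic circulatory arrest (DHCA) for 30 min before rewarming. Control rats were sham-operated, with intubation and cannulation but no bypass, cooling or arrest. All were 9-week-old male Sprague-Dawley rats under sevoflurane, given acetaminophen after surgery, and the hippocampus was collected 24 h after surgery. Operated rats that died before this time were left out of the study, so the CPB/DHCA group holds survivors, and bypass, cooling and arrest cannot be told apart in it. Every library carries the same batch label.

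miR-132 and miR-212 are cut from neighbouring hairpins of a shared primary transcript. In neurons this transcript is induced by the transcription factor CREB after synaptic activity or the growth factor BDNF, and it is widely used as a readout of neuronal activity. The 3p arm of miR-132 is regarded as the main product. miR-132-3p promotes the growth of dendrites and spines in neurons. The 5p arms come from the other strand of each hairpin and are less studied.

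The mature sequences are shown because they set which arms can act on the same targets. They are given 5′ to 3′ as listed with the counts, with the seed (bases 2 to 8, which pair with targets) in capitals.
rno-miR-132-3p: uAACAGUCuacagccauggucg
rno-miR-212-3p: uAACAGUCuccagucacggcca
rno-miR-132-5p: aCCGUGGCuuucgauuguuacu
rno-miR-212-5p: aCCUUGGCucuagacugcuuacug

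The 3p arms share the seed AACAGUC and their first 9 bases, and they are identical at 17 of 22 positions. No other listed miRNA carried this seed. The 5p arms are identical at 14 of the first 22 positions, and their seeds differ by 1 base, G4U (the base of miR-132-5p, the position counted from the 5′ end, then the base of miR-212-5p). Neither seed of a 5p arm was found in another listed miRNA, and no listed sequence contained, or was contained in, any of the 4. In the RefSeq annotation of the rat assembly GRCr8, Mir212 and Mir132 lie next to each other on chromosome 10, with Hic1 as the nearest gene on the side of Mir212. The counts were made on another build (rn6), so positions are not given.

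Total counts ranged from 508574 to 672378 in the CPB/DHCA libraries and from 620133 to 772840 in the control libraries. Values below are tags, or normalized counts (CPM), which are tags brought to a common library size with TMM (trimmed mean of M values) factors. All 7 neuron-enriched miRNAs used to check the tissue, such as miR-124-3p, were listed, and they summed to 184602 to 371918 CPM in the CPB/DHCA group and 235048 to 337935 CPM in the control group. CPB/DHCA 3 stood apart. It had the lowest neuronal sum, and its 4 oligodendrocyte miRNAs summed to 23257 CPM, against 5362 to 12310 CPM in the other CPB/DHCA libraries and 6499 to 8116 CPM in the control libraries. CPB/DHCA 1, at 12310 CPM, was also above every control library. By the thresholds given below, 1 of the 4 oligodendrocyte miRNAs passed upwards and none of the 7 neuronal miRNAs passed. Of all 467 miRNAs tested, 7.28% passed in either direction. In bulk tissue, fewer cells of a type and less RNA per cell cannot be told apart. Values without CPB/DHCA 3 stand beside several of the results, and those for spreads, sums and correlations were chosen after seeing the data.

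miR-132-3p, the main product of the cluster, was neither clearly higher nor lower 24 h after CPB/DHCA. It had 2595, 2077, 1171 and 1627 tags in CPB/DHCA 1 to 4, against 2474, 2311, 2681 and 2363 tags in control 1 to 4. Scaled, this was 3802, 4160, 1672 and 2893 CPM in the CPB/DHCA group, against 3776, 2765, 3718 and 3776 CPM in the control group. CPB/DHCA 1 and 2 lay above every control library and CPB/DHCA 3 lay below every one, so the groups overlapped. The mean was 3132 ± 1110 CPM in the CPB/DHCA group and 3509 ± 497 CPM in the control group (SD, n = 4 each). The fitted log2 fold change was -0.16 (standard error 0.26, 95% interval -0.74 to 0.42, adjusted p = 0.99 by the quasi-likelihood test of edgeR with Benjamini-Hochberg adjustment). Without CPB/DHCA 3 it was 0.04, with the sign turned.

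miR-132-5p, from the opposite strand of the same hairpin, was highest in 2 of the CPB/DHCA libraries. It had 1185, 1244, 423 and 675 tags in CPB/DHCA 1 to 4, against 570, 659, 1005 and 839 tags in control 1 to 4. These were 1736, 2492, 604 and 1200 CPM in the CPB/DHCA group, against 870, 788, 1394 and 1341 CPM in the control group. CPB/DHCA 1 and 2 were above all the control libraries, CPB/DHCA 4 was within their range, and CPB/DHCA 3 was the lowest of all 8. The mean was 1508 ± 802 CPM in the CPB/DHCA group and 1098 ± 313 CPM in the control group (SD, n = 4 each). Its log2 fold change of 0.46 (standard error 0.39, 95% interval -0.41 to 1.32, adjusted p = 0.89 in edgeR) had the largest size among the 4 miRNAs and did not pass the thresholds. When CPB/DHCA 3 was left out it was 0.72 with an unadjusted p of 0.035, past both thresholds given below, and an adjusted p = 0.66 by edgeR.

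miR-212-3p, which shares the seed of miR-132-3p, was more than 9 times rarer in every library. Its tags numbered 260, 172, 105 and 108 in CPB/DHCA 1 to 4, against 152, 169, 207 and 168 in control 1 to 4. CPM were 381, 345, 149.96 and 192 in the CPB/DHCA group, against 232, 202, 287 and 268 in the control group. As with miR-132-5p, CPB/DHCA 1 and 2 were above all the control libraries, whereas CPB/DHCA 3 and 4 were below all of them. Means were 267 ± 113 CPM in the CPB/DHCA group and 247 ± 37.9 CPM in the control group (SD, n = 4 each), and the log2 fold change was 0.11 (standard error 0.30, 95% interval -0.57 to 0.79, adjusted p = 1.00 in edgeR). The smallest of these counts, 105 tags, has an exact Poisson 95% interval of 85.9 to 127 tags, which covers counting error only.

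miR-212-5p was as rare as its partner arm. It had 188, 131, 115 and 110 tags in CPB/DHCA 1 to 4, against 117, 192, 141 and 199 tags in control 1 to 4. CPM were 275, 262, 164 and 196 in the CPB/DHCA group, against 179, 229.7, 196 and 318 in the control group. Here the highest value was in a control library, control 4, and the lowest again in CPB/DHCA 3. Means were 224 ± 53.2 CPM in the CPB/DHCA group and 230.5 ± 62.1 CPM in the control group (SD, n = 4 each). The log2 fold change was -0.04 (standard error 0.25, 95% interval -0.59 to 0.52, adjusted p = 1.00 in edgeR).

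**Figure D1:**
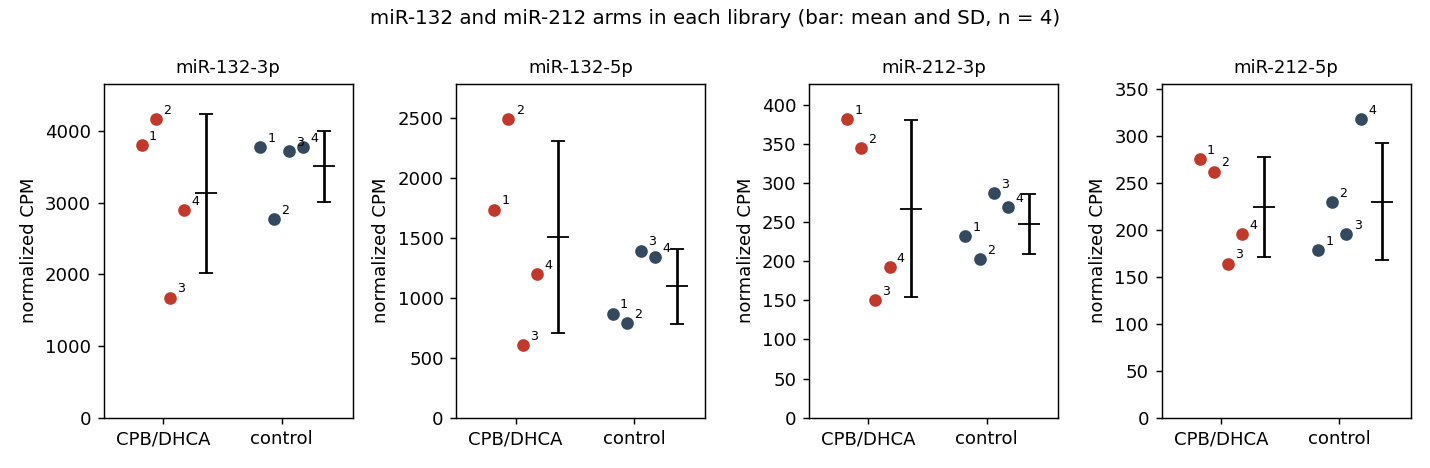
Normalized CPM of each arm (vertical axes, from 0) in the CPB/DHCA libraries (red, left) and control libraries (dark, right), numbered by replicate, with the group mean and SD beside the points (n = 4). CPB/DHCA 1 and 2 lie above the control libraries for miR-132-3p, miR-132-5p and miR-212-3p, CPB/DHCA 3 is lowest for all 4 arms, and the groups overlap in each panel.

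The thresholds were a fold change of 1.5 or more with an unadjusted p of 0.05 or less in edgeR. None of the 4 miRNAs passed them, while 34 of all 467 miRNAs tested did (7.28%). None of the 4 passed at an adjusted p under 0.05, where 1 of the 467 did (0.214%), and DESeq2 likewise called none of the 4 by either rule. The 4 unadjusted p values in edgeR were 0.27 or more, so no member had an unadjusted p under 0.05. Groups that did not overlap in CPM were found for 22 of the 467 (4.71%) and for none of the 4. In an exact permutation test of each miRNA (two-sided, smallest possible p 0.029), the p values of miR-132-3p, miR-132-5p, miR-212-3p and miR-212-5p were 0.71, 0.57, 1.00 and 0.91. The median log2 fold change of the 4 was 0.04, and that of all the miRNAs tested was -0.05. The intervals above leave room for changes of more than 1.5-fold in each of the 4 miRNAs.

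**Figure D2:**
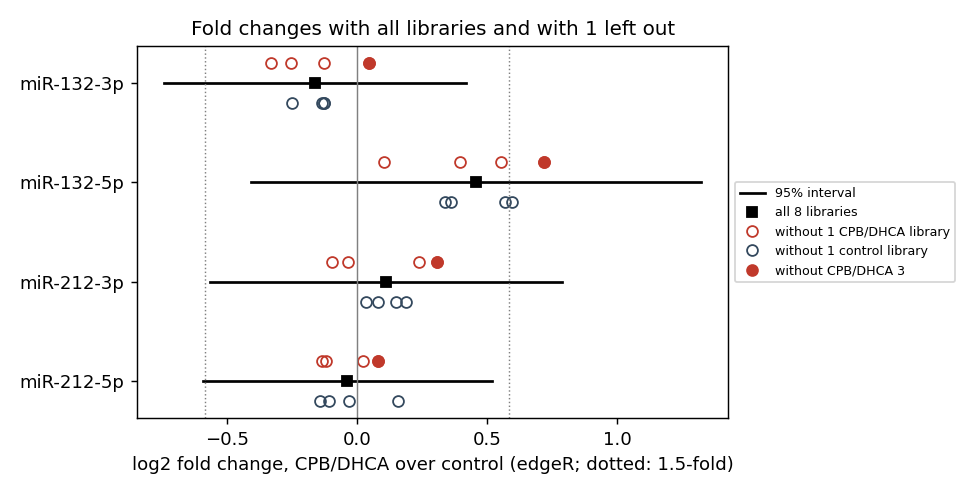
Log2 fold change of each arm, CPB/DHCA over control (horizontal axis), with all 8 libraries (black square, line for the 95% interval) and with 1 library left out (circles, red for CPB/DHCA libraries and dark for control libraries). The filled red circle is the fit without CPB/DHCA 3, which is the highest of the 4 red circles in each row and passes the dotted 1.5-fold line only for miR-132-5p, at 0.72.

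The order of levels was the same in both groups for the first 2 arms. miR-132-3p was the 38th most abundant of the listed miRNAs by mean CPM, miR-132-5p the 63rd, miR-212-3p the 144th and miR-212-5p the 151st. miR-132-3p exceeded miR-132-5p in all 8 libraries, and miR-132-5p exceeded both arms of miR-212 in all 8. The arms of miR-212 did not differ beyond their spread, and each was ahead of the other in 4 libraries. These are levels of tags, and adapter ligation is known to favour some small RNA sequences over others.

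Summed over the 4 miRNAs, the cluster took 0.293% to 0.713% of the listed tags in the CPB/DHCA libraries and 0.431% to 0.576% in the control libraries. The sum was 5131 ± 2044 CPM in the CPB/DHCA group and 5085 ± 786 CPM in the control group (SD, n = 4 each). It was lowest in CPB/DHCA 3, at 2591 CPM, and highest in CPB/DHCA 2, at 7259 CPM, while the control libraries lay between 3985 and 5703 CPM. The 3p arms with the seed AACAGUC summed to 3399 ± 1214 CPM in the CPB/DHCA group and 3756 ± 526 CPM in the control group. Without CPB/DHCA 3 the CPB/DHCA mean was 3924 ± 744 CPM (n = 3), above that of the control group, and the sum of all 4 arms was 5978 ± 1402 CPM. miR-132-3p supplied 90.9% to 93.8% of the tags with this seed in the CPB/DHCA libraries and 92.8% to 94.2% in the control libraries.

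The composition of the cluster was compared through 4 ratios of tags within a library, which do not depend on the scaling between libraries. The ratio of miR-132-3p to miR-132-5p was 2.19, 1.67, 2.77 and 2.41 in CPB/DHCA 1 to 4, against 4.34, 3.51, 2.67 and 2.82 in control 1 to 4. It was lower in the CPB/DHCA group, with 1 library of that group (CPB/DHCA 3) just above the lowest control library (control 3). On the log2 scale the means were 1.15 ± 0.31 in the CPB/DHCA group and 1.71 ± 0.32 in the control group (SD, n = 4 each), a difference of -0.56 (standard error 0.22). The exact two-sided permutation p was 0.057, and 0.23 when adjusted over the 4 ratios, so this difference did not pass. CPB/DHCA 3 had the highest ratio of its group, and without it the difference was -0.66, the largest with any 1 library left out. Over all such fits it ranged from -0.66 to -0.42 (exact permutation p = 0.057 to 0.14).

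The ratio of the 3p arms, miR-132-3p to miR-212-3p, was 9.98, 12.1, 11.2 and 15.1 in CPB/DHCA 1 to 4, against 16.3, 13.7, 13.0 and 14.1 in control 1 to 4. CPB/DHCA 1, 2 and 3 were below all the control libraries, and CPB/DHCA 4 was above all but 1 of them. The log2 difference was -0.25 (standard error 0.14, exact permutation p = 0.14, adjusted over the 4 ratios 0.29). With 1 library left out, the difference was -0.29 to -0.16 in 7 fits (exact permutation p = 0.14 to 0.29). Without CPB/DHCA 4 it was -0.36 (exact permutation p = 0.029, the smallest that 3 libraries against 4 allow). CPB/DHCA 4 was the only library of its group within the control range, so the groups could not overlap without it. That p follows from the choice of library and is no support for a difference. The ratio of the 5p arms, miR-132-5p to miR-212-5p, ranged from 3.68 to 9.50 in the CPB/DHCA group and from 3.43 to 7.13 in the control group (log2 difference 0.36, standard error 0.36, exact permutation p = 0.37, adjusted 0.495). miR-212-3p to miR-212-5p ranged from 0.913 to 1.38 in the CPB/DHCA group and from 0.844 to 1.47 in the control group (log2 difference 0.05, standard error 0.25, exact permutation p = 0.74, adjusted 0.74).

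**Figure D3:**
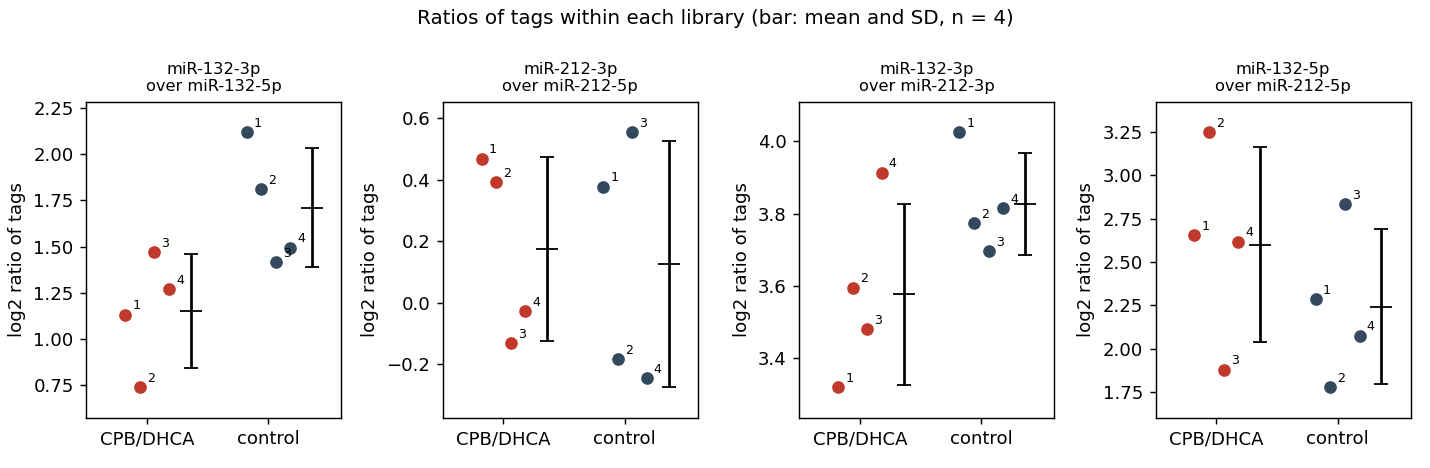
Log2 ratio of tags within each library (vertical axes, which do not start at 0) for 4 pairs of arms, with CPB/DHCA libraries on the left in red, control libraries on the right in dark, and the group mean and SD (n = 4). For miR-132-3p over miR-132-5p the CPB/DHCA libraries lie between 0.74 and 1.47 and the control libraries between 1.42 and 2.12, and the groups overlap in all 4 panels.

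As a share of all tags of the cluster, miR-132-3p took 61.4%, 57.3%, 64.6% and 64.6% in CPB/DHCA 1 to 4, against 74.7%, 69.4%, 66.5% and 66.2% in control 1 to 4. Every CPB/DHCA library was below every control library. miR-132-5p took 23.3% to 34.3% in the CPB/DHCA group and 17.2% to 24.9% in the control group. This share was looked at after the values had been seen, and it was not tested. No matching count was made for other miRNAs, so how often such a separation arises is not known. A different measure, the ratio of the 3p to the 5p arm, was compared among the 77 miRBase hairpins with both arms listed in all 8 libraries. Groups that did not overlap in this ratio were found for 1 (1.3%), which was neither miR-132 nor miR-212. The difference for miR-132 was the lowest of the 77 and ranked 6 by size in either direction, whereas miR-212 ranked 63 by size. The lowest place was narrow, with miR-132 at -0.56 and miR-376b next at -0.54. An exact permutation p as low as that of miR-132, or lower, was found for 5 of the 77 hairpins, miR-132 included. The median difference over the 77 hairpins was 0.04, with 31 of them lower in the CPB/DHCA group. This set of hairpins was also drawn up after the values had been seen.

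**Figure D4:**
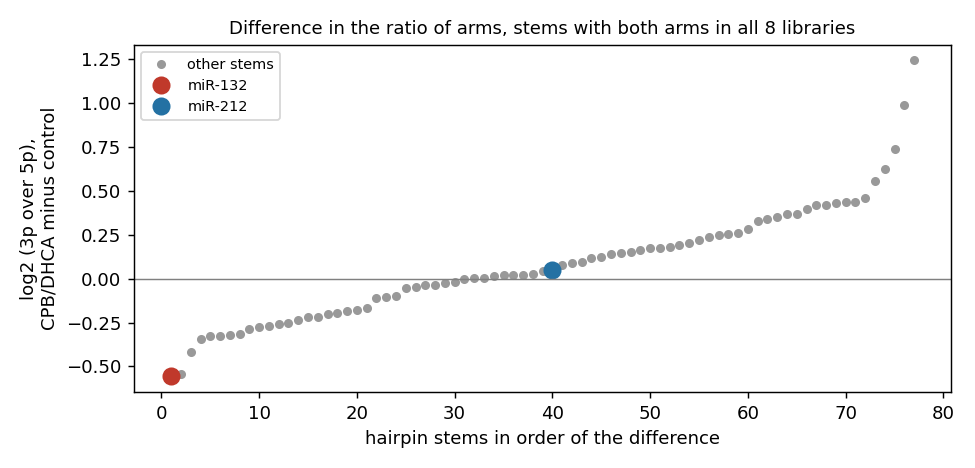
Difference between the groups in the log2 ratio of the 3p arm to the 5p arm (vertical axis, CPB/DHCA minus control) for each of 77 hairpins, in order of the difference (horizontal axis). miR-132 (red) is the lowest, at -0.56, and miR-212 (blue) is near 0, at 0.05.

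Libraries of the CPB/DHCA group were spread more widely than those of the control group in 3 of the 4 miRNAs. The gap was smaller for each of these 3 once CPB/DHCA 3 was left out, and it shrank least for miR-212-3p. For miR-132-3p, the SD of log2 CPM was 0.59 in the CPB/DHCA group and 0.22 in the control group. For miR-132-5p it was 0.87 in the CPB/DHCA group and 0.42 in the control group, and for miR-212-3p it was 0.65 in the CPB/DHCA group and 0.23 in the control group. For miR-212-5p it was 0.35 in the CPB/DHCA group and 0.37 in the control group. Over the 172 miRNAs listed in all libraries with a mean of at least 100 tags, the median SD was 0.26 in the CPB/DHCA group and 0.24 in the control group, and 82 of them had the larger SD in the CPB/DHCA group. Within the CPB/DHCA group, miR-132-5p, miR-212-3p and miR-132-3p ranked 9, 14 and 15 of the 172 by SD. Without CPB/DHCA 3 the SD in the CPB/DHCA group was 0.27 for miR-132-3p (rank 73), 0.53 for miR-132-5p (rank 14), 0.53 for miR-212-3p (rank 13) and 0.27 for miR-212-5p (rank 76), with a median of 0.24 over the 172. The difference in spread was not tested. CPB/DHCA 3, lowest for all 4 arms, also had the lowest neuronal sum and the highest oligodendrocyte sum. The part of these sums in the spread was not tested.

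Across the 8 libraries, miR-132-3p, miR-132-5p and miR-212-3p varied together. All 6 pairs among the 4 miRNAs were compared on log2 CPM, with p exact over all pairings of the libraries and adjusted over the 6. Pearson's r of miR-132-3p with miR-212-3p was 0.86 (exact permutation p = 0.0017, adjusted 0.010) and Spearman's rho was 0.88 (exact permutation p = 0.0072, adjusted 0.015). For miR-132-5p with miR-212-3p, r was 0.88 (exact permutation p = 0.0045, adjusted 0.014) and rho was 0.90 (exact permutation p = 0.0046, adjusted 0.015). The arms of miR-132 had an r of 0.78 (exact permutation p = 0.017, adjusted 0.034) and a rho of 0.88 (exact permutation p = 0.0072, adjusted 0.015). The 3 pairs with miR-212-5p had r from 0.59 to 0.69 and rho from 0.62 to 0.67, with adjusted exact permutation p from 0.094 to 0.11 and 0.115 each.

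When the 2 libraries farthest from the median of the first-named miRNA were left out, r was 0.78 for miR-132-3p with miR-212-3p and 0.79 for miR-132-5p with miR-212-3p. For the arms of miR-132 it was 0.47, so that relation rests in part on CPB/DHCA 3 and control 2. With 4 libraries, a group is too small for a correlation of its own. All the values share the scaling and total of their library.

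The miRNAs whose profile was most like that of miR-132-3p over the 8 libraries included 2 arms of the neuron-enriched miR-128. Of 466 others tested, the 5 with the highest Pearson correlation of log2 CPM were miR-128-3p (0.91), miR-128-1-5p (0.90), miR-127-5p of an imprinted cluster (0.88), miR-222-3p (0.88) and miR-27a-3p (0.87), against a median r of 0.02. These are descriptions, and the points share their library, scaling and depth. miR-128-3p had 79982, 101126, 31189 and 85455 CPM in CPB/DHCA 1 to 4, against 98782, 46645, 109228 and 80682 CPM in control 1 to 4. Like miR-132-3p, it was lowest in CPB/DHCA 3 and, among the control libraries, in control 2. miR-128-1-5p was rare, with 4.28 CPM in CPB/DHCA 3, 7.18 CPM in control 2 and 22.9 to 27.7 CPM in the others, so its r rests on few tags. Without CPB/DHCA 3 and control 2, the r of miR-128-3p was 0.31, that of miR-128-1-5p was 0.54 and that of miR-222-3p was 0.21. That of miR-127-5p was then 0.88 and that of miR-27a-3p was 0.95. Without CPB/DHCA 3 alone, the r was 0.72 for miR-128-3p, 0.74 for miR-128-1-5p, 0.94 for miR-127-5p, 0.65 for miR-222-3p and 0.96 for miR-27a-3p. By the same measure miR-212-3p ranked 8 of the 466, miR-132-5p 29 and miR-212-5p 55. The summed oligodendrocyte miRNAs had an r of -0.82 with miR-132-3p, and the summed neuronal miRNAs, which include miR-128-3p, had 0.78. Without CPB/DHCA 3 these were -0.26 and 0.27, so both rest on that library.

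**Figure D5:**
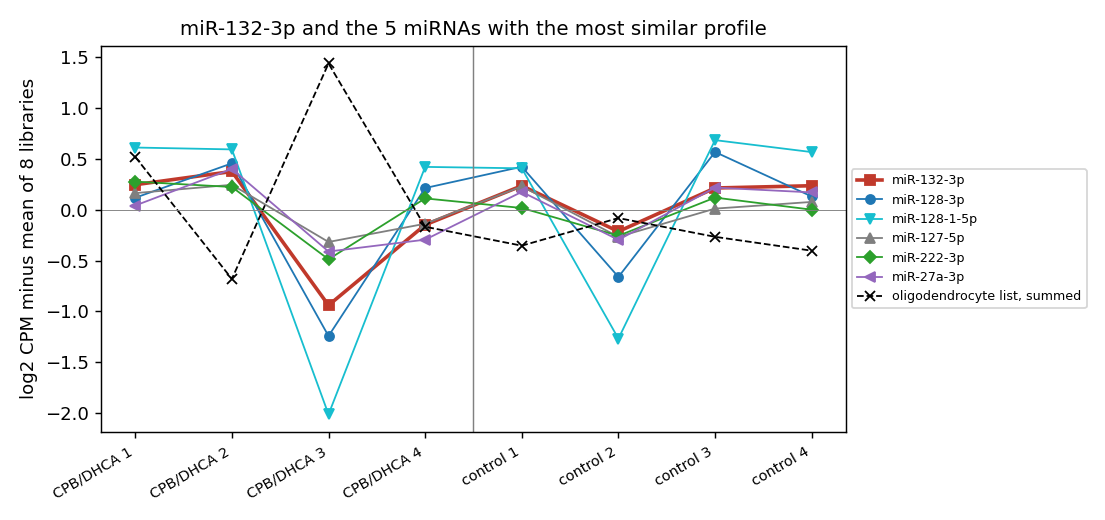
Log2 CPM of miR-132-3p (red squares) and the 5 miRNAs most like it, and of the summed oligodendrocyte miRNAs (dashed), each minus its own mean over the 8 libraries (vertical axis), with CPB/DHCA libraries left of the line and control libraries right of it. miR-132-3p, miR-128-3p and miR-128-1-5p are lowest in CPB/DHCA 3, where the oligodendrocyte sum is highest, and next lowest in control 2.

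A list of 20 other miRNAs with known roles in neuronal activity and synaptic plasticity was also read, of which 19 were tested. None passed the fold change of 1.5 and unadjusted p of 0.05 upwards, 1 passed downwards and 18 did not pass, where 7.28% of all the miRNAs tested passed in either direction, and the median log2 fold change of the list was -0.03. This count is near that over all the miRNAs and is no result about the list. The 1 that was lower was miR-29b-3p, known in neurons as a repressor of pro-apoptotic genes, with 121 ± 53.8 CPM in the CPB/DHCA group and 207 ± 17.7 CPM in the control group (SD, n = 4 each; log2 fold change -0.78, adjusted p = 0.53 in edgeR), and it no longer passed when any of CPB/DHCA 1 to 3 or control 3 or 4 was removed. Among the most abundant members, miR-26a-5p had a log2 fold change of 0.01 and miR-125b-5p of -0.11. miR-181a-5p, which represses an AMPA receptor subunit in rodent neurons, had 0.21, and the neuronal miR-124-3p had -0.43 (adjusted p = 0.72 in edgeR).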

How the data were processed

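Per the labels and the study's methods, the authors trimmed adapters with cutadapt 1.9.3, aligned reads with Novoalign 3.02.12 to miRBase and newly predicted precursors, allowing 1 mismatch, and deposited raw tag counts per mature miRNA. A second deposited table, a score, gives TPM that the authors had rounded to whole tags, and it was used in alternatives only. The build named is rn6, and the miRBase release is not given in the sources used here. The 669 lines of counts gave 615 mature names, each used once. No count under 2 is listed, so empty cells (0 or 1 tag) were read as 0.

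Those with a total of 10 or more counts and a listed count in 4 or more libraries (467) were tested with edgeR 4.0.16 in R 4.3.3, using TMM factors (0.891 to 1.13), glmQLFit and glmQLFTest, adjusted over all of them. The paper's thresholds were used, since it names no test for these miRNAs. Ratios and correlations were tested by exact permutation in Python 3.11.15 with numpy 2.4.6. The procedures were tested on simulated data. For the edgeR fit and the ratios of arms, these were drawn separately for each miRNA or hairpin, without library-wide shifts such as that of CPB/DHCA 3. Replicates are separate rats.

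The members, lists and tests were chosen with earlier results of these data known. The miRNAs named are the members, the 4 most abundant and any passing miRNAs of the plasticity list, and the 5 most like miR-132-3p. Summed markers of 5 other cell types (leukocyte, erythrocyte, endothelium, choroid plexus and smooth muscle) overlapped between the groups. Of their 19 tested miRNAs, 3 of 4 erythrocyte miRNAs were past both thresholds upwards and 1 of 4 smooth muscle miRNAs downwards. Over all 467 miRNAs tested, 34 passed in either direction (7.28%). The r of the 5 summed lists with miR-132-3p was 0.33, -0.32, 0.73, -0.68 and 0.07, in the order above. The choroid plexus sum was highest in control 2 (4125 CPM) and next highest in CPB/DHCA 3 (3659 CPM), the libraries lowest in miR-132-3p. The smooth muscle sum was also highest in control 2 (7460 CPM). These relations were not tested.

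Alternatives were DESeq2 1.42.0, 3 other scalings, 2 other filters, 1 tag in empty cells, limma 3.58.1 on log2(TPM + 1), log2(TPM + 0.1) and log2(TPM + 10), a robust fit, miRBase miRNAs only, the replicate block and each library left out.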

Additional observations from a re-analysis of the deposited data

Results flagged for a closer look

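In the control group, control 2 had 2765 CPM of miR-132-3p, while the other 3 control libraries lay between 3718 and 3776 CPM. Its gap to the nearest library was 0.943 of the range of the group, above the 95% critical value of Dixon's test for 4 samples. The rule was applied to the TMM-scaled CPM only, and the gap depends on the scaling. In unscaled tags control 2 had 2311 and control 4 had 2363. In the authors' TPM, control 1 to 4 had 932, 766, 918 and 963. This was 1 of 16 groups of values examined, and chance gives about 1 in 20. Without control 2 the log2 fold change of miR-132-3p was -0.25. The same library had the lowest neuronal sum (235048 CPM) of the control group. It also had the lowest miR-128-3p (46645 CPM), which is part of that sum, so these are not separate observations. The part of these in its value was not tested.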

How the results depend on the processing

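In all 13 settings that kept the 8 libraries, none of the 4 miRNAs passed the thresholds, and miR-132-3p, miR-132-5p and miR-212-3p kept their direction (log2 fold changes -0.23 to -0.12, 0.33 to 0.50 and 0.02 to 0.15). That of miR-212-5p, -0.04 in the analysis above, was 0.00044 with RLE factors and 0.00078 with DESeq2. With 1 library left out, log2 fold changes ranged from -0.33 to 0.044 for miR-132-3p, from 0.10 to 0.72 for miR-132-5p, from -0.098 to 0.31 for miR-212-3p and from -0.14 to 0.16 for miR-212-5p, and the number of the 4 past the thresholds from 0 to 1. The turned signs arose without CPB/DHCA 3 (miR-132-3p 0.044, miR-212-5p 0.080), CPB/DHCA 1 or 2 (miR-212-3p -0.098 or -0.037), and CPB/DHCA 4 or control 4 (miR-212-5p 0.021 or 0.16). The 1 miRNA that passed was miR-132-5p without CPB/DHCA 3, in a fit where 24 of 467 passed. The cause was not tested.

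The log2 difference in the ratio of miR-132-3p to miR-132-5p ranged from -0.66 to -0.42 with 1 library left out, that of miR-132-3p to miR-212-3p from -0.36 to -0.16, that of the 5p arms from 0.14 to 0.60, and that of miR-212-3p to miR-212-5p from -0.073 to 0.19 (-0.047, -0.022, -0.053 and -0.073 without CPB/DHCA 1, CPB/DHCA 2, control 2 and control 4). No member had an empty cell, so reading empty cells as 1 tag could not change these ratios. Adding 0.5 to both tags could hardly move them, since the smallest count was 105 tags. Neither setting is therefore a check of the ratios.

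Deviations of same-numbered libraries from their group means correlated at 0.20, -0.15, -0.07 and 0.59, so the numbers were not treated as pairs. With the replicate block, the log2 fold changes were -0.23, 0.33, 0.02 and -0.03 for miR-132-3p, miR-132-5p, miR-212-3p and miR-212-5p, and no call changed. In the paired form, the ratio of the arms of miR-132 had an exact p of 0.25, where 0.125 is the smallest possible.

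Over all the miRNAs tested, the number past both thresholds was 34, and it ranged from 12 with log2(TPM + 10) to 44 without control 4. It was 39 of 615 with no filter, 19 of 387 with miRBase miRNAs only, 21 without control 1 and 18 without control 3.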
